A study of Homo sapiens with 4 samples.

Results

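Gene deserts are long stretches of chromosome without a protein-coding gene, and the gene desert tiles described here are the 1000 bp tiles in such stretches whose DNA methylation differed between clones of the ovarian cancer cell line SKOV3. A member tile was autosomal, held 40 or fewer CG dinucleotides, lay 100 kb or more from the nearest protein-coding gene span and was more than 2 kb from every annotated transcription start site (TSS). Of the 69094 different autosomal tiles that the authors' deposited tables list, 9138 were members. Of the 51243 tiles listed for shC-S vs. sh-LY75-S (below, the shRNA comparison) 6371 were members. Of the 28282 tiles listed for LY75-R-S against LY75-KO-S (the knockout comparison) there were 3855, and of the 20986 tiles of the mix 2538. The gene-near tiles set beside them met the same limits on CG number and TSS distance but overlapped a protein-coding gene span or lay under 100 kb from one, and numbered 24353, 15093 and 10003.

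The methylation of 4 SKOV3 clones was measured by reduced representation bisulfite sequencing (RRBS), with 1 library per clone and no replicate. Of the clones with mesenchymal (M) phenotype, shC-S expressed a control shRNA and LY75-R-S a shRNA-resistant LY75 cDNA in cells whose own LY75 was suppressed by shRNA. The latter library is deposited as Ly75-OV-S, and its match to LY75-R-S was inferred from its label, which gives LY75 overexpression on top of LY75 suppression by shRNA. Of the clones with epithelial (E) phenotype, sh-LY75-S expressed a shRNA against the antigen receptor LY75 and LY75-KO-S had lost LY75 by CRISPR. The mix set both M clones against both E clones, so it shares its libraries with both single comparisons, whereas the single comparisons share none. They are linked by descent, however, since the study describes LY75-R-S as derived from sh-LY75-S cells. Methylation of sh-LY75-S that was kept in LY75-R-S would enter the single comparisons with opposite signs, and this was not tested. As each clone gave 1 library, the tables compare libraries, and clone history, agent and LY75 level cannot be told apart.

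For each tile the tables give how far its percent methylation differed, in percentage points, with the authors' p-value and q-value. In the single comparisons, with 1 library on each side, these can reflect read counts only and not the spread between replicates of a clone. Only tiles with a difference of at least 25 points and a q-value under 0.01 are listed, so a tile that is missing may have been unchanged or too thinly covered. Neither the methylation of a library nor its read number is given, and the depth behind each difference is unknown. A positive difference was read as higher methylation in the E clone. Over the 616 gene desert tiles listed in all tables, the difference in the mix was fitted by least squares, without intercept, on those of the single comparisons, and the coefficients were 0.517 for the shRNA comparison and 0.442 for the knockout comparison. The sign of the differences in the knockout comparison therefore rests on the composition stated for the mix, and every direction given for that table would turn if its order of subtraction were the other way. As deposited, the shRNA comparison is named with its M clone first but the knockout comparison with its E clone first. Whether these names follow the order of subtraction is not stated.

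Most of the human genome outside genes is poor in CG dinucleotides and heavily methylated, and in tumours long gene-poor stretches often lose part of this methylation. Gene deserts also hold distant enhancers, especially beside genes of developmental transcription factors, and many long noncoding RNA genes. RRBS reads mainly short fragments between MspI sites (CCGG), so it reaches deserts at their rare CG-rich spots. In the reference, 669136 autosomal tiles (24.9% of those with sequence) met the rule for gene deserts, and 40478 of these (6.05%) could be reached by a 50 bp read from a MspI fragment of 40 to 220 bp. Of the gene-near tiles of the genome, 200742 (12.8%) could be reached.

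To show what RRBS reads in these tiles, the fragments below come from the tiles that changed most strongly in all tables and from those with opposite signs in the single comparisons. Each is the MspI fragment of 40 to 220 bp with the most CG dinucleotides that starts in its tile, printed from the plus strand of the GRCh37 (hg19) reference, 5′ to 3′, with each CG in capitals, and named by the protein-coding genes on either side of its desert. Of the 15 tiles chosen in this way, 11 hold such a fragment and 4 do not, and 9 fragments are printed.
IRX4-IRX2 tile, higher in E, chr5:2523231-2523284: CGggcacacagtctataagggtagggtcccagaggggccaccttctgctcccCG
CACUL1-NANOS1 tile, higher in E, chr10:120662844-120662891: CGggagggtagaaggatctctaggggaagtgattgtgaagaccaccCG
MKI67-MGMT tile, higher in E, chr10:130372256-130372411: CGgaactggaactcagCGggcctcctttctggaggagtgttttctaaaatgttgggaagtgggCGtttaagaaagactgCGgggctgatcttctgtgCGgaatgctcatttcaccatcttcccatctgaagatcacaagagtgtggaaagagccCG
SESN3-FAM76B tile, higher in E, chr11:95186117-95186230: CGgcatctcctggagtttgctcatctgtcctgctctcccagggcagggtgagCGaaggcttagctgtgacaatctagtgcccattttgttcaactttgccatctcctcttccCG
IRF8-FOXF1 tile, higher in E, chr16:86152311-86152382: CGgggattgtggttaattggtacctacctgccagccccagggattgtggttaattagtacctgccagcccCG
CADM1-BUD13 tile, lower in E, chr11:115984960-115985002: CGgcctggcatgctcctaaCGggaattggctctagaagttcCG
BTBD3-SPTLC3 tile, lower in E, chr20:12873410-12873538: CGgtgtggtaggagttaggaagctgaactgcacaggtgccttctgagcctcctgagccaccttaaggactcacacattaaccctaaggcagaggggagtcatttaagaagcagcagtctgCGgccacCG
AJAP1-NPHP4 tile, opposite signs, chr1:5813494-5813700: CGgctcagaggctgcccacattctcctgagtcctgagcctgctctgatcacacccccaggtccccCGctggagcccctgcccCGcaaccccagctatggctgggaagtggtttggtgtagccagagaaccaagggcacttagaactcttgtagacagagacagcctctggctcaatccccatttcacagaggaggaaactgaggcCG
PLSCR5-ZIC4 tile, opposite signs, chr3:146778531-146778733: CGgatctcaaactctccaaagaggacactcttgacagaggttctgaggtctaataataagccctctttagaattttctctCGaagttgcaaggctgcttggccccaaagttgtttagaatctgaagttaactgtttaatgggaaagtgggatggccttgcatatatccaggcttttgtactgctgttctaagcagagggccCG
The printed fragments are 43 to 207 bp long and hold 2 to 6 CG dinucleotides, of which those at the ends are part of the MspI sites. A tile can hold further fragments, and which of them were read is not given in the tables.

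The tiles with higher methylation in the E clones from which these fragments come had a difference of 100 points in every table. The deposited values thus put these tiles as a whole at no methylation in the M libraries and full methylation in the E libraries. All 5 reached 100 points in the shRNA comparison, in the knockout comparison and in the mix. The first lay at chr5:2523001-2524000, 222 kb from IRX2, a homeobox transcription factor gene of the Iroquois family, with a q-value of 2.01e-18 in the shRNA comparison and 1.13e-12 in the knockout comparison. The tile at chr10:120662001-120663000 lay 126 kb from NANOS1, which encodes an RNA-binding regulator of translation, inside the noncoding gene LINC03036. That at chr10:130372001-130373000 was 447 kb from MKI67, the gene of the proliferation marker Ki-67, in the desert that ends at the DNA repair gene MGMT. The tile at chr11:95186001-95187000 lay 220.3 kb from SESN3, a sestrin gene of the stress response. The tile at chr16:86152001-86153000 lay 196 kb from IRF8, an interferon regulatory transcription factor gene, on the side of the forkhead gene FOXF1. The tiles beside IRX2, MKI67, SESN3 and IRF8, overlapped no annotated gene of any kind.

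Among the 5 tiles with lower methylation in the E clones, 4 had a difference of -100 points in every table. They included chr11:115984001-115985000, which lay 608 kb from the adhesion molecule gene CADM1, and chr20:12873001-12874000, which lay 116 kb from SPTLC3, a gene of sphingolipid synthesis. The fifth, chr6:98253001-98254000, was 522 kb from MMS22L, a DNA replication and repair gene, in the desert that ends at the neural transcription factor gene POU3F2. It differed by -93.9 points in the shRNA comparison, by -99.0 in the knockout comparison and by -97.6 in the mix, and held 4 CG dinucleotides. These 10 tiles were chosen by their size and show only what the strongest members look like.

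Gene desert tiles were higher in the E clone less often than gene-near tiles in the shRNA comparison, while in the knockout comparison both sets were closer to an even split. In the shRNA comparison, 3802 gene desert tiles were higher and 2569 lower in sh-LY75-S than in shC-S. Thus 59.7% were higher (95% Wilson interval 58.5 to 60.9%), against 67.6% of the gene-near tiles (67.1 to 68.2%) and 64.3% of all autosomal tiles listed. The difference of the shares was -7.97 points (95% Newcombe interval -9.31 to -6.63). In the knockout comparison, 2079 gene desert tiles were higher and 1776 lower in LY75-KO-S than in LY75-R-S. This is a share of 53.9% (52.4 to 55.5%), against 55.0% of the gene-near tiles and 54.8% of all autosomal tiles listed. Here the shares differed by -1.10 points, and the interval from -2.87 to 0.656 includes no difference, whereas with a limit of 50 kb between the sets the difference was -1.65 points (-3.23 to -0.0777). In the mix, 1572 gene desert tiles were higher and 966 lower in the E clones, a share of 61.9% (60.03 to 63.8%), against 68.03% of the gene-near tiles and 64.8% of all autosomal tiles listed, a difference of -6.09 points (-8.20 to -4.01). All intervals cover counting error over tiles only. Tiles that lie close together are not independent and there were no replicate libraries, so the intervals are narrower than the true error.

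The size of the differences was much the same in deserts as near genes. The median absolute difference of the gene desert tiles was 50.6 points in the shRNA comparison, 43.4 in the knockout comparison and 37.1 in the mix, against 50.0, 42.7 and 37.4 points for the gene-near tiles. Differences of 50 points or more made up 55.5%, 40.1% and 21.99% of the gene desert tiles, beside 53.3%, 37.3% and 21.6% of all autosomal tiles listed. Differences of the full 100 points made up 15.6%, 9.42% and 0.473%, beside 13.1%, 9.32% and 0.478%. A further 4.82% of the gene desert tiles in the shRNA comparison and 5.76% in the knockout comparison stood at exactly 50 points in either direction (within 1e-09 points), and 0.315% in the mix, beside 5.08%, 6.80% and 0.379% of all autosomal tiles listed. The share higher in sh-LY75-S did not run with size: it was 55.7% at 25 to 30 points, 62.8% at 40 to 50 points and 58.5% at 100 points, whereas among gene-near tiles it was 63.8%, 66.5% and 67.9%, with its highest value, 72.5%, at 70 to under 100 points.

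Relative to what the digest could reach, gene desert tiles were listed more often than gene-near tiles. In the shRNA comparison, 139 of every 1000 reachable gene desert tiles were listed, against 112 of every 1000 gene-near tiles. The rates were 82.0 against 67.5 in the knockout comparison and 56.4 against 46.6 in the mix. Of the listed gene desert tiles, 88.2%, 86.1% and 89.99% were reachable in silico. The reachable tiles that were covered but not listed are unknown, so a rate also depends on depth. Gene desert tiles held fewer CG dinucleotides, with a median of 14, 13 and 14 against 17, 16 and 17 near genes, and had a median GC content of 44.4% in the shRNA comparison against 48.6% near genes.

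The direction changed with the distance from genes in the shRNA comparison and in the mix. Tiles inside a protein-coding gene span were higher in sh-LY75-S in 64.1% of cases, and this share was 73.8% at 10 to 50 kb from a span. In the deserts it was 63.9% of 3151 tiles at 100 to 250 kb, 58.5% of 1779 tiles at 250 to 500 kb, 50.8% of 1018 tiles at 500 kb to 1 Mb and 54.6% of 423 tiles beyond 1 Mb. The intervals at 100 to 250 kb (62.2 to 65.5%) and at 500 kb to 1 Mb (47.7 to 53.8%) did not overlap. The mix gave 65.9%, 60.3%, 52.2% and 59.2% over the same ranges. The knockout comparison gave 53.1%, 52.7%, 56.3% and 58.4%, with overlapping intervals. The median CG number fell over the same ranges, from 14 to 12 in the shRNA comparison, and its part in the trend was not tested. Just outside and inside the limit of 100 kb, in the shRNA comparison, 66.6% of the 407 tiles at 90 to 100 kb and 64.9% of the 365 tiles at 100 to 110 kb were higher in sh-LY75-S. In the knockout comparison these shares were 49.0% and 50.5% and in the mix 64.5% and 73.2%, so in both the share was higher inside the limit.

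**Figure D1:**
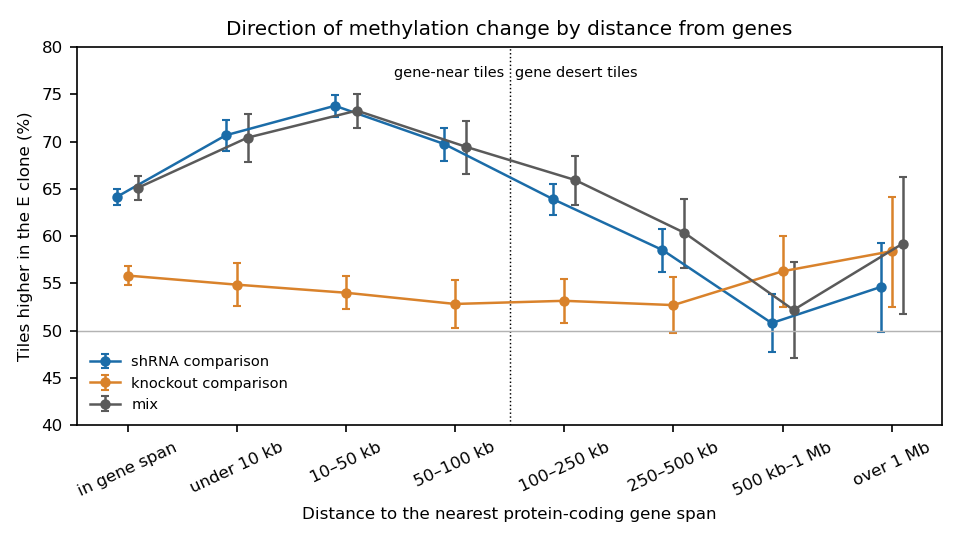
Share of listed tiles with higher methylation in the E clone (%, vertical axis from 40) against distance to the nearest protein-coding gene span, for each deposited table; points are shares, bars are 95% Wilson intervals and the dotted line marks the limit of 100 kb. The share for the shRNA comparison falls from 73.8% at 10 to 50 kb to 50.8% at 500 kb to 1 Mb, while that for the knockout comparison stays between 52.7% and 58.4%.

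The CG number of a tile went with its direction in the shRNA comparison. Of the gene desert tiles with up to 5 CG dinucleotides, 41.03% (36.8 to 45.4%) were higher in sh-LY75-S, so in this class of 507 tiles lower methylation was more frequent. The share was 49.3% at 6 to 10 CG, 62.6% at 11 to 20, 70.5% at 21 to 30 and 77.8% (73.4 to 81.7%) at 31 to 40. Gene-near tiles of the same CG classes gave 47.1%, 56.3%, 67.6%, 74.8% and 76.1%, so the gene desert share was below the gene-near share in each class but the last, with overlapping intervals in the first class and in the last. With the gene-near tiles weighted to the CG numbers of the gene desert tiles, the difference in the shRNA comparison was -4.81 points in place of -7.97. The mix ran from 41.7% to 78.4% over the same classes. For LY75-KO-S the gene desert share went from 59.0% at up to 5 CG to 49.0% at 31 to 40 CG, with overlapping intervals.

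The position along the chromosome went with the direction as well. Within 5 Mb of a chromosome end, 81.8% (79.5 to 83.9%) of the 1166 gene desert tiles of the shRNA comparison were higher in sh-LY75-S, slightly above the 79.0% of the gene-near tiles there. The share was 61.2% at 5 to 10 Mb from an end, 55.1% at 10 to 50 Mb and 51.0% (48.5 to 53.4%) beyond 50 Mb, where that of gene-near tiles was 59.9%. In the mix the shares were 82.1%, 61.3%, 58.3% and 52.5%. The knockout comparison gave 52.4%, 55.4%, 55.2% and 52.1%. Tiles close to an end held more CG dinucleotides, with a median of 21 within 5 Mb and 11 beyond 50 Mb in the shRNA comparison. Within 1 class of CG number the difference by position was still present: of the gene desert tiles with 11 to 20 CG, 82.1% were higher in sh-LY75-S within 5 Mb of an end and 58.6% farther inside, and with 21 to 40 CG these shares were 84.7% and 64.1%. Near the largest assembly gap of a chromosome, which in most of them is at the centromere, 74.1% of 491 gene desert tiles within 5 Mb were higher in sh-LY75-S, against 58.5% of those farther away. Gene-near tiles gave 71.5% against 67.4% there. For gene desert tiles the shares were 76.3% against 60.8% in the mix and 55.2% against 53.8% in the knockout comparison.

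**Figure D2:**
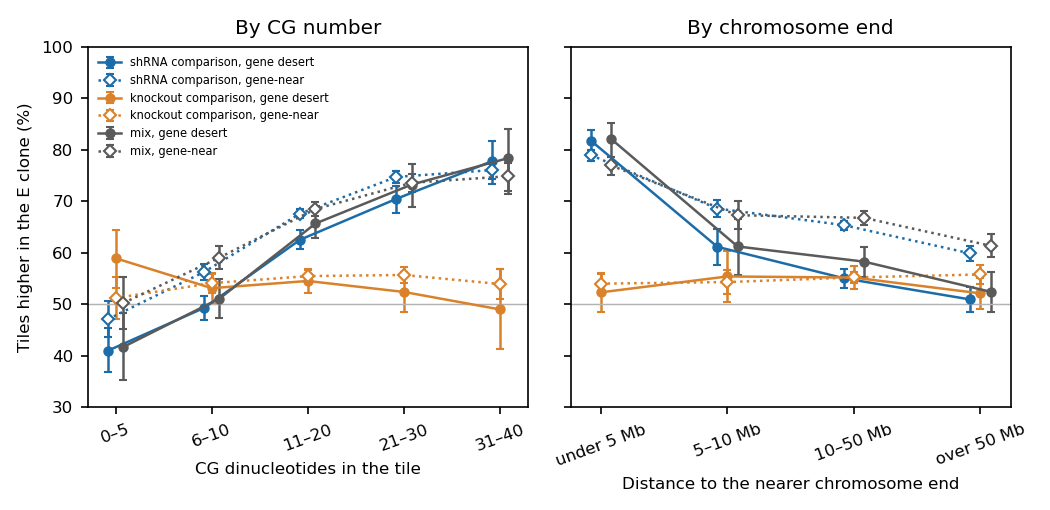
Share of listed tiles with higher methylation in the E clone (%, vertical axis from 30) by the number of CG dinucleotides in the tile (left) and by distance to the nearer chromosome end (right); filled circles and solid lines are gene desert tiles, open diamonds and dotted lines gene-near tiles, and bars 95% Wilson intervals. In the shRNA comparison the gene desert share climbs from 41.03% to 77.8% with CG number and falls from 81.8% to 51.0% with distance from the end, while in the knockout comparison it lies between 49.0% and 59.0%.

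The chromosomes differed widely in the shRNA comparison. On chromosomes 3, 4 and 13 fewer than 50% of the gene desert tiles were higher in sh-LY75-S (45.5%, 48.1% and 48.6%), whereas chromosome 22 had 81.4%, chromosome 17 had 77.1%, chromosome 16 had 75.3%, chromosome 19 had 74.2%, chromosome 14 had 73.6% and chromosome 10 had 73.3%. The median over the 22 autosomes was 59.1%, and on 15 of them the interval lay above 50%, on none below. The gene desert share was below the gene-near share on 17 of the 22 autosomes, most widely on chromosome 20 (52.7% against 71.9%) and chromosome 3 (45.5% against 60.6%). It was above it on chromosomes 10, 16, 17, 19 and 22, with the largest excess on chromosome 10 (73.3% against 67.6%). In the mix the gene desert share was lower on 18 of 22 autosomes and ran from 48.4% on chromosome 3 to 79.8% on chromosome 10.

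In the knockout comparison only some of these chromosomes stood at the same end of the range. The gene desert share was lower than the gene-near share on 10 autosomes and higher on 12, and it ran from 42.2% on chromosome 21, with 64 tiles, to 63.0% on chromosome 19, with 27 tiles. Of the chromosomes named above as high in the shRNA comparison, chromosomes 17 and 14 also had high shares (62.7% and 60.2%), as did chromosome 19, whereas chromosomes 22, 16 and 10 had 46.8%, 47.7% and 53.8%. Of those named as low, chromosomes 3, 4 and 13 had 51.5%, 56.9% and 61.5%. The interval lay above 50% on 6 autosomes and below it on none. Chromosome 22 had the highest rate of listing in every table: 213, 138 and 92.3 of every 1000 reachable gene desert tiles, against 102, 49.9 and 38.7 on chromosome 9, which had the lowest. In the shRNA comparison chromosome 19 had practically the same rate, 213, but it had 77.2 in the knockout comparison and 69.9 in the mix. Of the members on chromosome 22 in the shRNA comparison, 77.2% lay within 5 Mb of the chromosome end and their median CG number was 24.

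**Figure D3:**
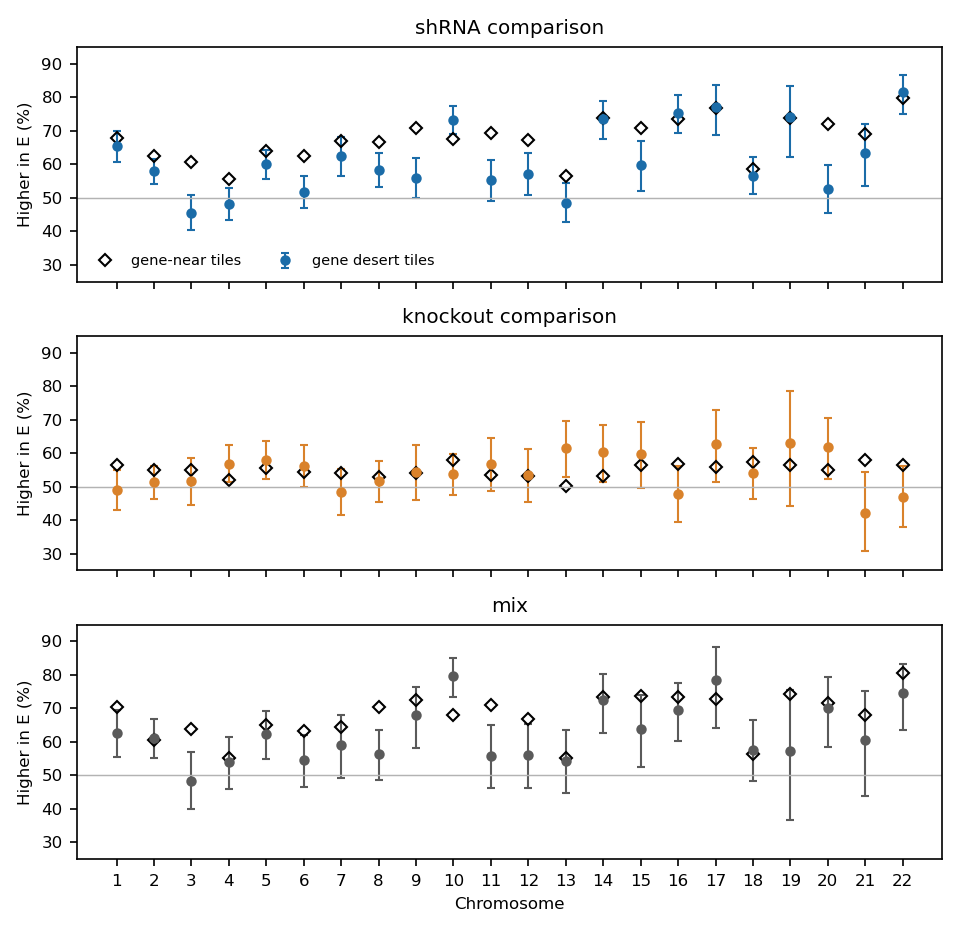
Share of listed tiles with higher methylation in the E clone (%, vertical axis from 25) on each autosome, in 1 panel per deposited table; filled circles are gene desert tiles with 95% Wilson intervals and open diamonds gene-near tiles. In the shRNA comparison the circles range from 45.5% on chromosome 3 to 81.4% on chromosome 22 and lie below the diamonds on 17 of 22 autosomes, in the knockout comparison on 10.

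Neighbouring gene desert tiles mostly changed in the same direction in the shRNA comparison. In the knockout comparison adjacent tiles did so more weakly, and tiles farther apart stood near an even split. In the shRNA comparison, 79.4% of 359 pairs of adjacent gene desert tiles shared their sign, as did 77.1% of 970 pairs at a spacing of 2 to 10 kb, 66.9% of 2534 pairs at 11 to 100 kb and 60.2% of 2486 pairs farther apart, where the overall shares alone would give 51.9%. In the knockout comparison these values were 57.3% of 117 pairs, 49.4% of 350 pairs, 49.2% of 1376 pairs and 51.8% of 1990 pairs, where the overall shares give 50.3%. The mix gave 75.8%, 79.7%, 71.7% and 58.6%. Gene-near tiles behaved much the same, with 78.6% of adjacent pairs alike in the shRNA comparison and 54.8% in the knockout comparison.

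**Figure D4:**
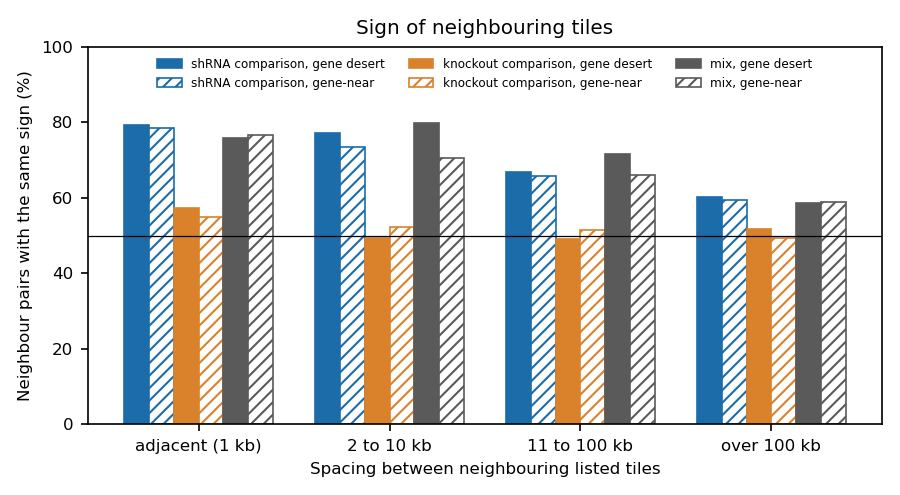
Share of neighbouring listed tiles of the same set that carry the same sign (%, bars from 0) by spacing along the chromosome, for each deposited table; filled bars are gene desert tiles, hatched bars gene-near tiles, and the line marks 50%. Adjacent gene desert tiles share their sign in 79.4% of pairs in the shRNA comparison and in 57.3% in the knockout comparison.

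Most members stood alone. In the shRNA comparison, 679 of the gene desert tiles (10.7%) lay in 320 runs of 2 or more adjacent members, and 251 of these runs had 1 direction throughout. The knockout comparison had 115 such runs, 65 of them in 1 direction, and the mix 64, of which 48. The longest run held 8 tiles, at chr4:3653001-3661000 in the shRNA comparison, between LRPAP1, a chaperone gene of lipoprotein receptors, and the adrenergic receptor gene ADRA2C. There 7 tiles were higher and 1 lower in sh-LY75-S, with a median difference of 69.5 points and a range from -50.0 to 100 points. A run of 4 tiles at chr10:130552001-130556000 in the MKI67 to MGMT desert was higher throughout, by 33.3 to 100 points, and another of 4 tiles at chr10:133578001-133582000, between TCERG1L and PPP2R2D, by 66.7 to 99.6 points. Both of these belonged to the shRNA comparison.

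The single comparisons listed partly the same tiles but did not share their direction. As LY75-R-S was derived from sh-LY75-S cells, they are not independent, and the part of this in the signs was not tested. A total of 1218 gene desert tiles were listed in both, which is 19.1% of those in the shRNA comparison and 31.6% of those in the knockout comparison. Over all autosomal tiles listed these overlaps were 16.0% and 29.2%, and over gene-near tiles 17.6% and 28.4%. Of these, 407 were higher and 214 lower in both E clones, 311 were higher in sh-LY75-S alone and lower in LY75-KO-S, and 286 the reverse. The same direction was thus seen in 51.0% (48.2 to 53.8%), where the shares of higher tiles in each table would give 51.2%. Among gene-near tiles the same direction was seen in 52.5% (51.0 to 54.0%) of 4292 shared tiles, where the shares give 51.6%. Among the 254 gene desert tiles with 50 points or more in both tables it was seen in 53.5% (47.4 to 59.6%), and among the 73 with 70 points or more in both in 60.3% (48.8 to 70.7%), and both intervals include 50%.

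**Figure D5:**
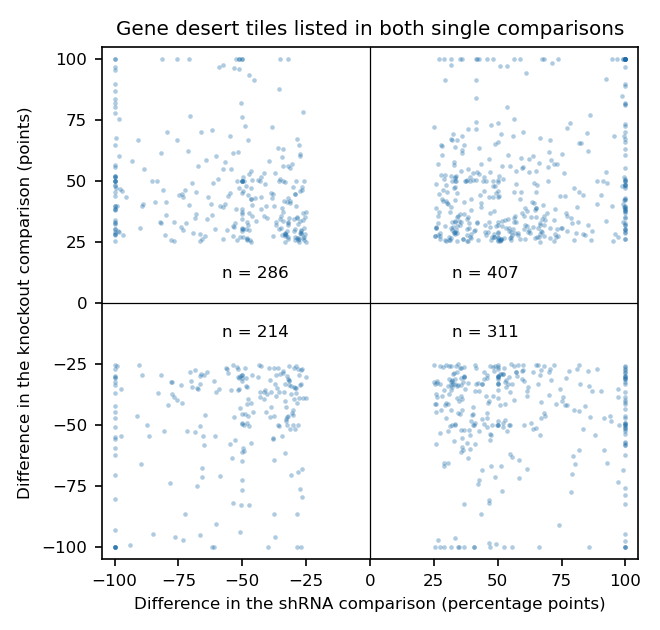
Difference in percent methylation in the shRNA comparison (horizontal, percentage points) and in the knockout comparison (vertical, percentage points) for each of the 1218 gene desert tiles listed in both; no tile lies within 25 points of 0 because such tiles are not listed. The quadrants hold 407 tiles higher and 214 lower in both E clones, and 311 and 286 with opposite signs.

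Seen by desert, the 9138 members lay in 1139 of the 1459 stretches between neighbouring protein-coding genes that hold a tile meeting the rule. For sh-LY75-S, 436 deserts held 5 or more members, of which 241 were mostly higher and 168 mostly lower in sh-LY75-S; in 44 of them every member was higher and in 37 every member lower. For LY75-KO-S, 266 deserts held 5 or more, of which 141 were mostly higher and 99 mostly lower, and 5 and 3 had 1 direction throughout. Of the 240 deserts with 5 or more members in both single comparisons, 90 leaned the same way in both, 109 leaned opposite ways and 41 were tied in 1 of them or in both. The 90 were 67 mostly higher and 23 mostly lower in both E clones. Of the 109, 59 were mostly higher in sh-LY75-S alone and 50 in LY75-KO-S alone. The count that the leanings in each comparison would give was not computed, so no excess of opposite leanings is read from these numbers.

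The 8 deserts with the most members held 603 of the 9138 tiles, and 6 of them lay within 5 Mb of a chromosome end. The desert between TAFA5, which encodes a secreted brain protein, and the chromatin reader gene BRD1 (chr22:49246725-50166930) held 108 members, and 42.7% of its reachable tiles were listed in at least 1 table, against 19.7% over all deserts. In it 79 of 84 tiles were higher in sh-LY75-S, with a median difference of 48.4 points, and 19 of 40 higher in LY75-KO-S. The stretch on the other side of TAFA5, from TBC1D22A (chr22:47571343-48885364), held 79 members, with 38 of 45 higher in sh-LY75-S and 19 of 40 in LY75-KO-S. Between the galanin receptor gene GALR1 and the zinc finger transcription factor gene SALL3 (chr18:74989857-76739817) there were 94 members, with 57 of 74 higher in sh-LY75-S and 17 of 38 in LY75-KO-S. These deserts were thus mostly higher in sh-LY75-S and near an even split in LY75-KO-S.

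The desert from TYW1, a gene of tRNA modification, to the neurodevelopmental gene AUTS2 (chr7:66704502-69063281) held 71 members, with 47 of 53 higher in sh-LY75-S but 10 of 30 in LY75-KO-S. From MKI67 to MGMT (chr10:129924688-131265453), 44 of 50 were higher in sh-LY75-S, with a median difference of 51.1 points, and 11 of 29 in LY75-KO-S. From C8orf90 to TSNARE1 (chr8:142528838-143293440), 38 of 47 were higher in sh-LY75-S and 12 of 25 in LY75-KO-S. The desert between the homeobox genes IRX4 and IRX2 (chr5:1887351-2745958) was the one of these in which most tiles were higher in both E clones: 41 of 43 in sh-LY75-S, with a median difference of 45.3 points, 17 of 29 in LY75-KO-S and 22 of 22 in the mix. It also holds the first of the fragments printed above.

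The desert between AGA, a lysosomal enzyme gene, and TENM3, a teneurin cell adhesion gene (chr4:178363592-183065139), went the other way. It is the longest of the 8, at 4.70 Mb, and lay 8.09 Mb from the chromosome end at its nearest. Of its members, 17 of 47 were higher in sh-LY75-S, with a median difference of -33.3 points, but 13 of 16 in LY75-KO-S, with a median of 33.3 points, and 7 of 18 in the mix. The median CG number of its tiles was 12 in the shRNA comparison, against 16 to 27.5 in the other 7. The member farthest from any protein-coding gene lay at chr4:33588001-33589000, 2361 kb from ARAP2 and 2440 kb from the protocadherin gene PCDH7. It was listed in the knockout comparison (56.3 points) and in the mix (39.9 points) but not in the shRNA comparison, and held 24 CG dinucleotides.

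Deserts beside genes of developmental transcription factors held more listed tiles per reachable tile than deserts in general, and a larger share of them were higher in sh-LY75-S. The list of genes was itself chosen with earlier results of these data known, so the values describe it and are no independent support. Of a list of 81 such genes, 63 bordered 83 deserts, and 73 of these held a member in the shRNA comparison (88.0%, against 72.8% of all deserts). The 83 deserts held 3623 reachable tiles and all 1459 deserts 40478, so those of the list had more on average. The part of this in the 88.0% was not tested. Per 1000 reachable tiles 182 were listed, against 139 over all deserts, and 501 of 747 tiles (67.1%, 63.6 to 70.3%) were higher in sh-LY75-S, against 59.7% of all gene desert tiles. In the knockout comparison the rate was 97.2 against 82.0 and the share 54.3% against 53.9%. In the mix the share was 70.1% against 61.9%. In the shRNA comparison and the mix the share also went with CG number and chromosome ends, and the list was not matched on either. GALR1 to SALL3 lies 1.34 Mb and IRX4 to IRX2 1.89 Mb from a chromosome end. Besides GALR1 to SALL3 and IRX4 to IRX2, the deserts of this list with the most members, chosen after their values were seen, were IRX2 to IRX1 (42 of 44 higher in sh-LY75-S), VRK1 to BCL11B (32 of 36), DCDC2C to SOX11 (25 of 30) and RNF144A to ID2 (27 of 29).

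Deserts beside cell adhesion genes, such as cadherins, protocadherins and contactins, more often held a listed tile, but they also had more reachable tiles on average. Fewer of their reachable tiles were listed. Of a list of 45 such genes, 41 bordered 61 deserts, and 58 of these (95.1%) held a member in the shRNA comparison, against 72.8% of all deserts. The share with a member was 90.2% against 63.3% in the knockout comparison and 80.3% against 55.3% in the mix. The 61 deserts held 4744 reachable tiles and all 1459 deserts 40478. A desert with more reachable tiles has more occasions to hold a member, and the part of this in these shares was not tested. Per 1000 reachable tiles 110 were listed in the shRNA comparison, 64.5 in the knockout comparison and 41.1 in the mix, against 139, 82.0 and 56.4 over all deserts. Of 596 tiles, 55.2% (51.2 to 59.1%) were higher in sh-LY75-S, against 59.7% of all gene desert tiles, and 56.3% of 380 tiles were higher in LY75-KO-S, against 53.9%. The deserts of this list with the most members, again chosen after their values were seen, were AGA to TENM3, PCDH7 to ARAP2 (15 of 30 higher in sh-LY75-S and 23 of 37 in LY75-KO-S), STIM2 to PCDH7 (12 of 24 and 16 of 24), SEL1L to FLRT2 (27 of 35 and 9 of 14), NCAM2 to MRPL39 (21 of 31 and 6 of 18) and CDH26 to CDH4 (17 of 21 and 4 of 13). They thus did not lean one way: in sh-LY75-S the last 3 were mostly higher, PCDH7 to ARAP2 and STIM2 to PCDH7 were evenly split and AGA to TENM3 was mostly lower. As both lists were chosen with earlier results of these data known and were compared by counts alone, nothing particular to either is claimed.

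Many gene desert tiles were not free of genes, since the rule concerns protein-coding genes only. Of the 6371 members of the shRNA comparison, 1998 (31.4%) lay inside the span of a noncoding gene, 1933 of them in a long noncoding RNA gene. Of these 1998, 56.5% (54.3 to 58.6%) were higher in sh-LY75-S, against 61.1% (59.7 to 62.6%) of the 4373 outside every gene span, and the intervals did not overlap. Near genes the order was the same, with 64.7% of the tiles inside a gene span of any kind and 72.9% of those outside. In the knockout comparison the shares were 54.4% inside and 53.7% outside, with overlapping intervals. At 100 kb or more from every annotated gene of any kind there remained 711, 428 and 252 tiles, of which 55.3% were higher in sh-LY75-S in the shRNA comparison.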

How the data were processed

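RRBS was done on 4 SKOV3 clones, with 1 library each. The shRNA comparison is shC-S against sh-LY75-S, the knockout comparison LY75-R-S against LY75-KO-S. The submitters' processing notes name FastQC, Trim Galore 0.4.1, Bismark 0.16.1, methylKit and hg19. The authors deposited 3 tables of their own comparisons in tiles of 1000 bp, with a p-value, a q-value and, as a score, the percentage points by which methylation differed, and no value of a single library. These columns were used as deposited, because they are the only values of the tiles in the tables used here. The reads were not analysed here. The coverage minimum, the version of methylKit and how the mix was combined are not given in the sources used here. Without molecular identifiers, 1 molecule can give several reads. Precision by depth therefore cannot be stated.

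Every autosomal row matched a tile of GRCh37 (0 lay beyond its chromosome ends). CG numbers, MspI fragments and their 50 bp reads were computed from that sequence, and distances from the 19229 autosomal protein-coding genes, the noncoding genes and the TSS of GENCODE release 44 mapped to GRCh37. Assembly gaps are runs of unknown bases. The members, gene lists and rules were chosen with earlier results of these data known. Named were the 5 tiles per direction with the same sign in all tables and the largest minimum absolute difference, the 5 with opposite signs in the single comparisons, the 8 deserts with the most members, the 3 longest runs of adjacent members and the member farthest from a gene, with ties to the lower chromosome number and start, of which 2 tiles with lower methylation are not reported here. Sequence was read with pysam 0.24.0, figures were drawn with matplotlib 3.10.9, and the rest used scipy 1.17.1, pandas 2.3.3 and numpy 2.4.6 under Python 3.11.15. The distances and intervals were tested on simulated data.

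The order of subtraction is not in the file headers. For the shRNA comparison it was read from the genes that the study lists as hyper- or hypomethylated in E cells. Of 10 genes, 8 had a tile within 2 kb of their start there. At 7 of these the largest difference had the sign that makes positive values higher in the E clone. No such check by genes was made for the knockout comparison or the mix. Their signs rest on the fit given above and on the composition stated for the mix. No test between conditions was made, as there are no replicates. Shares have 95% Wilson intervals and differences of shares Newcombe intervals. The alternatives were other distance, CG and size limits, tiles near chromosome ends or single autosomes left out, and, chosen after seeing the data, the reverse order of subtraction, tiles that fragments reach, fragment ends that occur once, and weighting by CG number.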

Additional observations from a re-analysis of the deposited data

Results flagged for a closer look

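The following gene desert tiles had opposite signs in the single comparisons, each at the full 100 points. This difference between the comparisons was not tested, since each rests on 1 library per clone. LY75-R-S was derived from sh-LY75-S cells, so the comparisons are not independent. The signs would be alike if the order of subtraction of the knockout comparison were reversed. Of the 5 tiles, 3 were fully higher in sh-LY75-S and fully lower in LY75-KO-S (100 and -100 points). They lay at chr1:5813001-5814000, 109 kb from NPHP4, at chr3:146778001-146779000, 325 kb from ZIC4, a zinc finger transcription factor gene, and at chr10:16083001-16084000, 180 kb from MINDY3. Their q-values in the shRNA comparison were 1.16e-64, 1.06e-22 and 1.87e-22, and in the knockout comparison 4.63e-25, 1.91e-17 and 1.31e-21. The other two were fully lower in sh-LY75-S and fully higher in LY75-KO-S (-100 and 100 points). They lay at chr13:35095001-35096000, 420.4 kb from NBEA, inside the noncoding genes LINC00457 and LINC02343, and at chr13:54435001-54436000, 809 kb from OLFM4, inside LINC00558. None of the 5 was listed in the mix. Opposite differences of 100 points largely cancel when both comparisons are combined, so this absence largely follows from how the tiles were chosen. The tiles held 6 to 18 CG dinucleotides each.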

How the results depend on the processing

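Leaving out 1 autosome at a time moved no share or difference out of its 95% interval. The number of gene desert tiles ran from 5677 to 6309 in the shRNA comparison, from 3449 to 3828 in the knockout comparison and from 2265 to 2517 in the mix. These counts are no check, since chromosome 2, with the most members, held only 10.9%, 10.5% and 10.8% of them. The share higher in the E clone ran from 58.7 to 60.5%, from 53.6 to 54.3% and from 60.5 to 62.7%. Its difference from gene-near tiles ran from -8.95 to -7.51, from -1.50 to -0.563 and from -7.52 to -5.57 points. The same-direction share ran from 50.3 to 51.6%. In the following, values for the shRNA comparison, the knockout comparison and the mix stand in this order. Each changed limit was applied to the gene-near tiles too. With another distance limit these were the tiles closer than that limit, so at 500 kb they included tiles counted as gene desert tiles above. With genes of any biotype they were the tiles under 100 kb from any gene. At 500 kb or more from a protein-coding gene there were 1441, 944 and 542 tiles, with shares of 51.9%, 56.9% and 54.4%, differences of -14.8, 2.19 and -12.9 points, and a same-direction share of 46.7%. At 100 kb or more from every gene of any biotype there were 711, 428 and 252 tiles. The share was then 55.3% in the shRNA comparison and 59.1% in the mix, the difference in the shRNA comparison -11.0 points and the same-direction share 42.8%. Differences of 50 points or more left 3537, 1545 and 558 tiles, and the difference was -9.99 points in the shRNA comparison and -8.64 in the mix. For the shRNA comparison and the mix, a limit of 50 kb gave shares of 62.6% and 64.2% and differences of -4.82 and -3.70 points (in the knockout comparison -1.65 points, with an interval from -3.23 to -0.0777 that excludes 0, unlike the interval at 100 kb), a limit of 20 CG shares of 55.7% and 58.0%, leaving out tiles within 5 Mb of a chromosome end shares of 54.7% and 56.9% and differences of -9.86 and -8.68 points, and weighting by CG number differences of -4.81 and -3.65 points. Tiles with a fragment whose ends occur once gave 61.6% in the shRNA comparison. With the order of subtraction reversed, the knockout comparison gave 46.1% and a difference of 1.10 points. Keeping only the tiles reachable in silico moved no share or difference out of its interval. The counts differ because fewer tiles enter, and the cause of the other changes was not tested. The gene desert share stayed below the gene-near share in the shRNA comparison and the mix under each of these alternatives, but not in the knockout comparison. No coverage minimum or replicate could be varied.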
